A study of Homo sapiens with 8 samples.

Results

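The retinoblastoma (RB) pocket proteins, the E2F transcription factors they bind and the DP partner of the E2Fs were described through 10 genes of 20057 with a symbol on the array: the pocket protein genes RB1, RBL1 and RBL2, the E2F genes E2F1, E2F2, E2F3, E2F4, E2F7 and E2F8, and TFDP1. They were chosen by name, as the non-control probes annotated to them, which gave 14 probes of 34127. Transcript levels came from 8 Agilent arrays labelled in 1 color, 2 for each of 4 groups. MIA PaCa-2 is a cell line from a primary pancreatic tumor, and Capan-1 is a cell line from a hepatic metastasis of pancreatic ductal adenocarcinoma. In each line, parental cells were compared with cells collected 48 hours after lipid transfection of a HOXB7 siRNA at 10 nM, which was given to block the homeobox transcription factor HOXB7. No array of cells given a scrambled siRNA was analysed here, so the transfection and the knockdown cannot be told apart, and the labels do not name the duplex used. The lines were grown in different media (RPMI for MIA PaCa-2 and IMDM with more serum for Capan-1), and each line was hybridized on a slide of its own, so that the cell line, the medium and the slide cannot be told apart. On each slide the siRNA arrays lay in the first 2 positions and the parental arrays in the other 2, so treatment and position cannot be told apart either. The labels do not say whether both arrays of a group came from separate cultures, and p-values then measure the spread between arrays, which may be technical.

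Pocket proteins hold E2F-DP dimers in a repressive state on cell cycle promoters, and phosphorylation by cyclin-CDK complexes releases them. RB1 mainly restrains the activators E2F1, E2F2 and E2F3, whereas p107 (RBL1) and p130 (RBL2) mainly bind E2F4 and E2F5, and with the MuvB core form the DREAM complex, which represses cell cycle genes in quiescent cells. E2F7 and E2F8 are atypical E2Fs that bind DNA without a DP partner and repress E2F target genes, many E2F genes among them.

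Several of these genes are themselves E2F targets, so the promoters that hold an E2F site are shown. RefSeq windows (GRCh38.p14) of 250 bases before to 50 bases after a start were found for 9 of the 10 genes. RB1's only window lies 172699 bases from the start of the gene and is not its main promoter. The motif was searched as TTTCGCGC, TTTGGCGC, TTTCCCGC or TTTGCCGC on both strands, and 3.31% of all 35116 windows held it. Among the members it was found at RBL1, TFDP1, E2F1, E2F2 and E2F3. The 60 bases shown end at the base before the start, except for TFDP1, where they lie further upstream, and capitals mark the motif in the direction in which it lies on the gene's strand.
RBL1, chr20:37095998-37096057, minus strand: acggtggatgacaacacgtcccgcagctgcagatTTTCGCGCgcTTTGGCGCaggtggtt
TFDP1, chr13:113584607-113584666, plus strand: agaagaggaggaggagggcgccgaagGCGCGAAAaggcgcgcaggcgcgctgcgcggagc
E2F1, chr20:33686386-33686445, minus strand: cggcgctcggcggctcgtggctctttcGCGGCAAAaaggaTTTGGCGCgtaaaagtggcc
E2F2, chr1:23531234-23531293, minus strand: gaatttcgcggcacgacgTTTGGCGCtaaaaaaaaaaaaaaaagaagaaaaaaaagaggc
E2F3, chr6:20401819-20401878, plus strand: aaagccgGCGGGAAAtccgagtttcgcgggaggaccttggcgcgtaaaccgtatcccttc
RBL1 and E2F1 each held 2 motifs within 33 bases of the start. The cell cycle homology element of DREAM targets, searched as TTTGAA on both strands, lay in the windows of E2F3 and RBL2 and in 15.2% of all windows. A match of letters is a description and shows no binding.

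Each gene was followed by its brightest probe, and levels are log2 intensities relative to the 75th percentile of the same array, so a value of 0 is that percentile. Between 67.5% and 73.0% of the probes were well above background on an array, and 13 of the 14 member probes were so on every array. The exception was the dimmer of the 2 E2F7 probes, which was not well above background on any MIA PaCa-2 array. HOXB7 itself differed after siRNA by -2.62 on the log2 scale in Capan-1 (adjusted p = 0.126 over all probes, limma), which does not pass the threshold. In MIA PaCa-2 its probe was not well above background on the siRNA arrays, and entered the test only through the parental arrays. The bound there, at least 2.47-fold lower, is therefore a description. The paper separately reports less HOXB7 mRNA by real-time PCR and less protein by western blot after siRNA in both lines. Marker lists were read as sums of levels relative to the 75th percentile. All 7 ductal epithelial markers were above background in Capan-1, with sums of 1168 to 1285. In MIA PaCa-2 5 of 7 were, with EPCAM and CDH1 not well above background, and the sums were 330.1 to 367.2. The mesenchymal list (VIM, ZEB1 and FN1) summed to 237.0 to 319.0 in MIA PaCa-2, where 2 of 3 were above background. In Capan-1 it summed to 0.561 to 0.637, with 3 of 3 above background in parental and 2 of 3 in treated cells. The fibroblast list summed to 13.99 to 15.6 in MIA PaCa-2 (3 to 4 of 5 genes above background) and 0.111 to 0.146 in Capan-1 (1 to 3 of 5). The leukocyte list, with 4 of 4 genes above background in every group, summed to 3.13 to 4.09 and 0.673 to 0.818, and the endothelial list (2 of 3) to 0.399 to 0.417 and 0.278 to 0.317. A sum follows the brightest genes of its list, and other genes can go the other way. In parental Capan-1, 2 mesenchymal genes were called lower and 1 higher, and 2 and 1 fibroblast genes. The counts were 2 and 2 for leukocyte, 1 and 1 for endothelial and 0 and 6 for ductal genes. A marker not above background in a line, such as EPCAM and CDH1 in MIA PaCa-2, was tested only through the other line, if at all. Calls of such markers, among them a mesenchymal gene not above background in MIA PaCa-2, are descriptions. Over all probes 39.1% were called lower and 31.0% higher. These marker differences move with the cell line, and their part in the line differences below was not tested.

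The parental lines differed in 7 of the 10 genes. Parental Capan-1 had less mRNA for RBL2 and E2F3, and more for RB1, E2F1, E2F7, E2F8 and TFDP1, while RBL1, E2F2 and E2F4 did not pass the threshold (limma, Benjamini-Hochberg adjusted p under 0.05 over 24968 probes). The largest differences were those of RBL2, E2F8 and E2F7, between 2.79-fold and 2.99-fold. This order depended on the background correction. With normexp, another correction, RBL2 gave -1.23 and E2F7 1.06 on the log2 scale. E2F8 then gave 0.75, behind TFDP1 at 1.00 and E2F3 at -0.95. In these bulk samples of cultured lines, fewer cells expressing a gene and less of its RNA per cell cannot be told apart. Of all probes tested, 70.0% passed in this comparison, 39.1% lower and 31.0% higher in Capan-1, so 7 of 10 is close to the background. The median absolute log2 difference was 0.74 over the members and 0.77 over all probes.

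Among the pocket proteins, RBL2 (p130, the pocket protein of quiescent cells) separated the lines most. On the parental arrays its level was -0.94 and -0.95 in Capan-1, and 0.58 and 0.70 in MIA PaCa-2. All Capan-1 arrays lay far below all MIA PaCa-2 arrays, in treated cells too, where the levels were -1.06 on both Capan-1 arrays and 0.68 and 0.85 in MIA PaCa-2. Parental Capan-1 was 2.99-fold lower, a log2 difference of -1.58 (SE 0.09, adjusted p = 2.58e-05). In siRNA-treated cells, compared on the arrays that the parental comparison did not use, the difference was -1.83 (adjusted p = 1.38e-05). With normexp the parental and treated differences were -1.23 and -1.35.

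RB1, whose product is the founding pocket protein, went the other way. Its level was 1.94 and 1.90 in parental Capan-1 and 1.50 and 1.41 in parental MIA PaCa-2. The ranges were separate but close together, and the probe lay on 10 spots of each array. The difference was 0.46 (SE 0.09, adjusted p = 0.00437), or 1.38-fold, a size larger than that of 32.6% of all probes tested, and 0.54 (adjusted p = 0.00224) in treated cells. Without scaling between arrays the parental difference was 0.43 and did not pass (adjusted p = 0.0872). The groups ranked from MIA PaCa-2 siRNA (1.18 ± 0.11, SD, n = 2) through MIA PaCa-2 parental (1.46 ± 0.06) and Capan-1 siRNA (1.72 ± 0.03) to Capan-1 parental (1.92 ± 0.03), with no overlap between neighbours.

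RBL1 (p107, the pocket protein that accumulates in cycling cells) was the flattest of the 10 genes. It measured -1.10 and -1.06 in parental Capan-1 and -0.92 and -1.06 in parental MIA PaCa-2. Its whole range over the 8 arrays was 0.18 log2 units, and the arrays of neighbouring groups lay close together. The parental difference was -0.09 (95% interval -0.30 to 0.12, adjusted p = 0.373), and in treated cells it was -0.05 (-0.26 to 0.16, adjusted p = 0.594). Its second, dimmer probe was designed to the other RefSeq transcript of the gene, and gave -0.19 (adjusted p = 0.247) in parental cells and -0.38 (adjusted p = 0.0473) in treated cells. The probes begin with different bases, and their first 30 of 60 are shown to tell them apart.
RBL1, brighter probe, chr20:35060611-35060670 (hg18), minus strand: atgcagaatcccctgccaaacgcgtctgtc
RBL1, dimmer probe, chr20:35069243-35069302 (hg18), minus strand: ttttacaatacaatatatgtaggaagagtg

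Of the activator E2Fs, E2F3 was lower in Capan-1, E2F1 was higher and E2F2 did not pass. E2F3 measured 0.01 and -0.21 in parental Capan-1, and 0.72 and 1.10 in parental MIA PaCa-2. All 4 Capan-1 arrays lay below all 4 MIA PaCa-2 arrays at this probe. The difference was -1.01 (SE 0.15, adjusted p = 0.00137), a 2.01-fold lower level, and -0.67 (adjusted p = 0.00781) in treated cells. The second E2F3 probe did not show it. That probe gave 0.22 (95% interval -0.19 to 0.63, adjusted p = 0.284) in parental cells and 0.01 (adjusted p = 0.956) in treated cells. Both E2F3 probes were designed to the same RefSeq transcript, and the dimmer one lies upstream of the brighter one.
E2F3, brighter probe, chr6:20601824-20601883 (hg18), plus strand: ggtgacctgttctctagctgtgatcttacc
E2F3, dimmer probe, chr6:20598581-20598640 (hg18), plus strand: ctcttcgatgcttacgatttggaaaagctc
The line difference of E2F3 therefore rests on 1 of its 2 probes.

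E2F1 measured 0.98 and 0.99 in parental Capan-1 and 0.68 and 0.54 in parental MIA PaCa-2. The ranges did not overlap, and the order of the 4 groups was the same as for RB1. The difference was 0.37 (SE 0.09, adjusted p = 0.0129), or 1.29-fold. It was no longer called without Capan-1 parental replicate 1 (0.38, adjusted p = 0.0584), without Capan-1 parental replicate 2 (0.37, adjusted p = 0.0605) or without MIA PaCa-2 parental replicate 2 (0.30, adjusted p = 0.0575). E2F2 measured 1.57 and 1.49 against 1.39 and 1.26, with separate ranges and a difference of 0.20 (95% interval -0.02 to 0.43, adjusted p = 0.0941). In treated cells E2F1 differed by 0.42 (adjusted p = 0.00802) and E2F2 by -0.04 (-0.26 to 0.19, adjusted p = 0.726).

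E2F4, an E2F that carries p107 and p130 to promoters, could not be separated between the lines. It measured 0.56 and 0.69 in parental Capan-1 and 1.05 and 0.41 in parental MIA PaCa-2, where the 2 arrays spanned both Capan-1 values. This was the widest replicate spread among the members (brightest probes, SD 0.45 in parental MIA PaCa-2). The parental difference was -0.11 (95% interval -0.64 to 0.43, adjusted p = 0.683), and in treated cells it was -0.15 (-0.68 to 0.39, adjusted p = 0.567). The 60-base probe maps to chr16:65789011-65789290 (hg18), a span of 280 bases, so it crosses an intron.

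The atypical repressors E2F7 and E2F8 were both higher in Capan-1. E2F7 measured -0.06 and -0.17 in parental Capan-1, and -1.60 and -1.59 in parental MIA PaCa-2. Every Capan-1 array was far above every MIA PaCa-2 array. The difference was 1.48 (SE 0.08, adjusted p = 1.77e-05) in parental cells, and 2.21 (adjusted p = 3.67e-06) in treated cells. With normexp these were 1.06 and 1.50. The dimmer E2F7 probe, not well above background in MIA PaCa-2, entered the test only through Capan-1, so that its bounds are a description: at least 2.47-fold higher in parental and at least 2.37-fold higher in treated Capan-1. E2F8 measured -1.18 and -1.21 in parental Capan-1, and -2.93 and -2.58 in parental MIA PaCa-2. The ranges were far apart. The difference was 1.56 (SE 0.16, adjusted p = 0.000291) in parental and 1.46 (adjusted p = 0.000382) in treated cells, and 0.75 and 0.61 with another background correction (normexp).

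TFDP1, which encodes the main DP partner, was also higher in Capan-1 at both of its probes. The brighter probe measured 3.07 and 3.16 in parental Capan-1 and 1.86 and 2.13 in parental MIA PaCa-2. Neither line's parental range came near the other's. The difference was 1.12 (SE 0.14, adjusted p = 0.000545), or 2.18-fold, and in treated cells it was 0.97 (adjusted p = 0.00103). The second probe, whose span on hg18 is 465 bases, gave 0.67 (adjusted p = 0.00462) in parental and 0.97 (adjusted p = 0.000898) in treated cells.

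**Figure D1:**
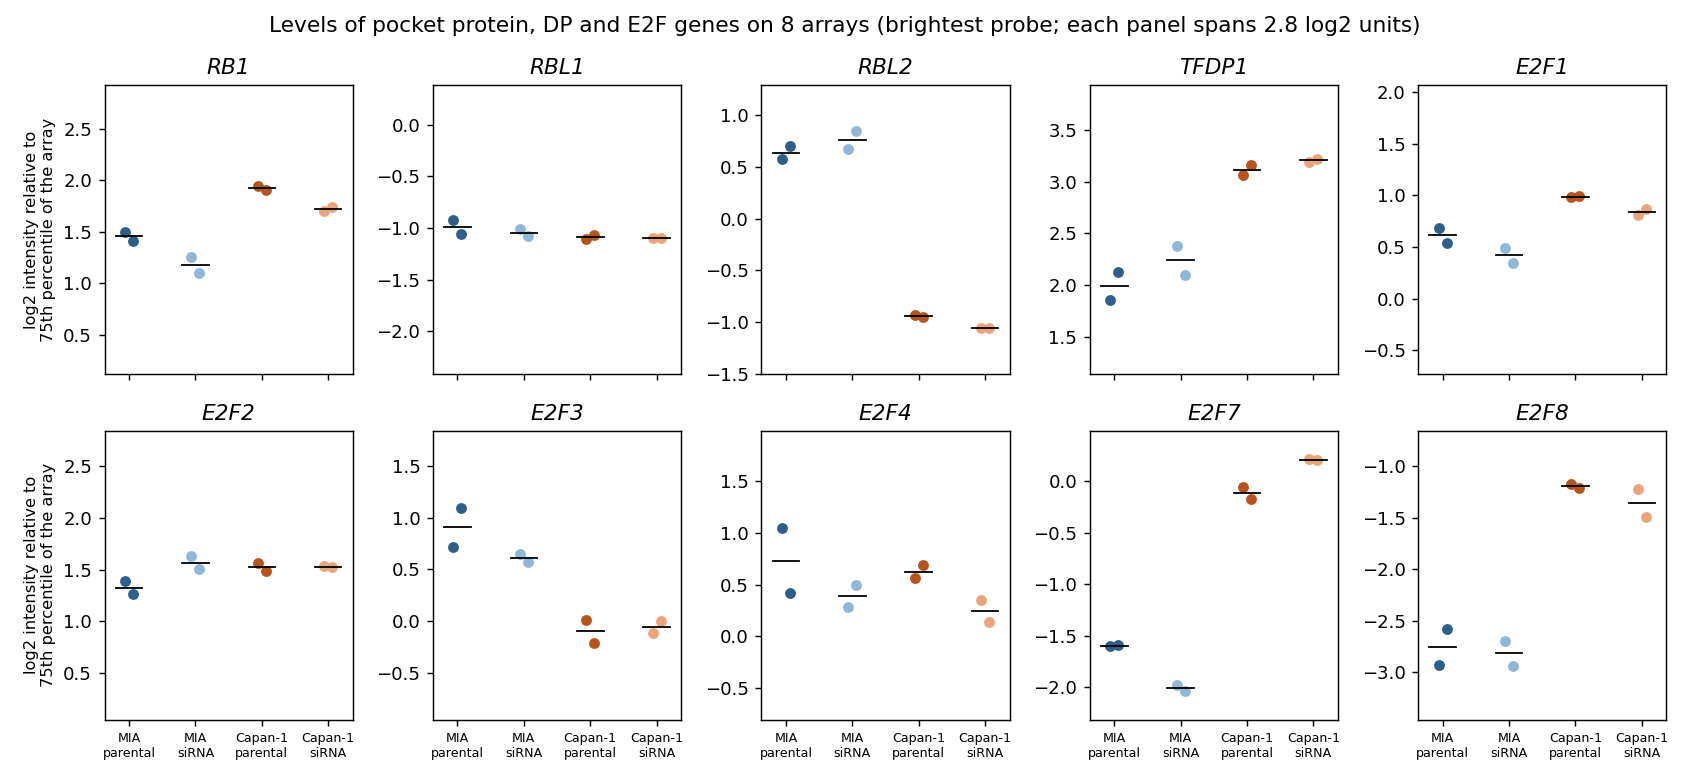
Level of each gene on the 8 arrays (vertical axis: log2 intensity of the brightest probe relative to the 75th percentile of the array), by cell line and treatment; points are arrays and lines are the means of 2 arrays. RBL2 and E2F3 lie lower and RB1, E2F1, E2F7, E2F8 and TFDP1 higher in Capan-1, and RBL1 spans 0.18 log2 units in all.

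**Figure D2:**
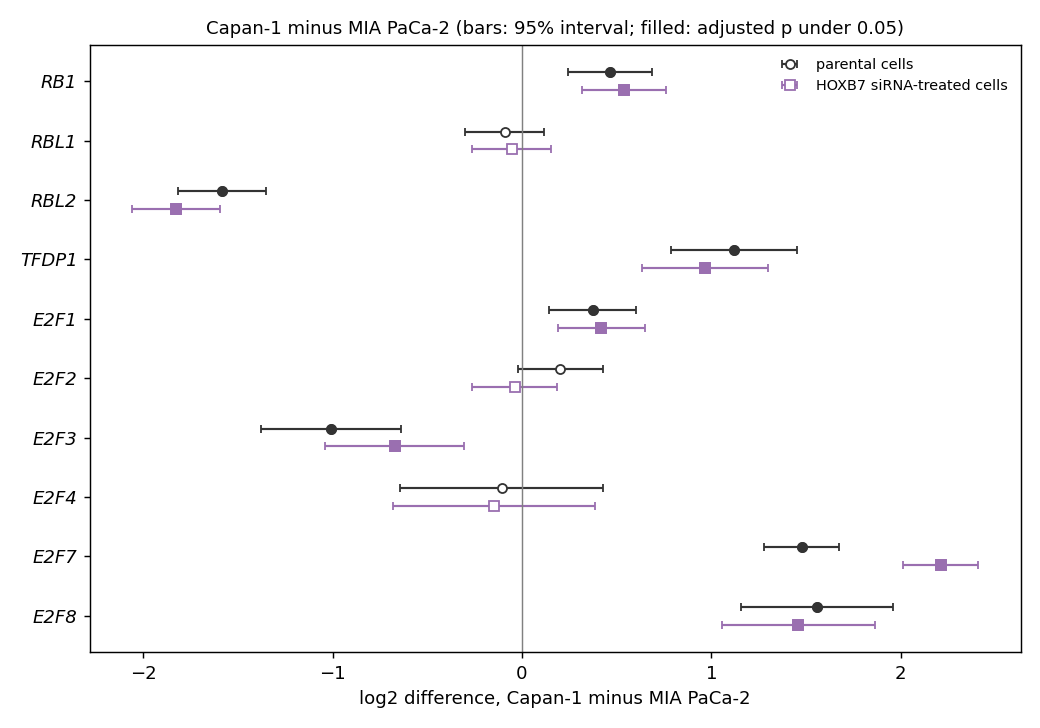
Difference of Capan-1 from MIA PaCa-2 for each gene (horizontal axis: log2 units), in parental cells and in siRNA-treated cells, with 95% intervals; filled symbols passed the threshold. The same 7 genes passed in both, from -1.58 and -1.83 for RBL2 to 1.56 and 1.46 for E2F8 and 1.48 and 2.21 for E2F7.

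The siRNA-treated cells gave the same count between the lines, with 2 genes lower and 5 higher in Capan-1, against 70.2% of 25243 probes called (40.2% lower and 30.1% higher). These were the genes called in parental cells, each in the same direction. The 2 comparisons used different arrays but the same 2 slides, and each shares its arrays with the comparisons of siRNA and parental cells that follow.

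The genes with 2 probes are set side by side in the plot of centred levels. Both TFDP1 probes were higher in Capan-1, while the dimmer E2F7 probe was not well above background in MIA PaCa-2 and gives no more than a bound there. The brighter RBL1 probe stayed close to its own mean, and the dimmer one ranged from -3.84 to -3.21 over the 8 arrays. The E2F3 probes parted, with the brighter one lower and the dimmer one slightly higher in parental Capan-1.

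**Figure D3:**
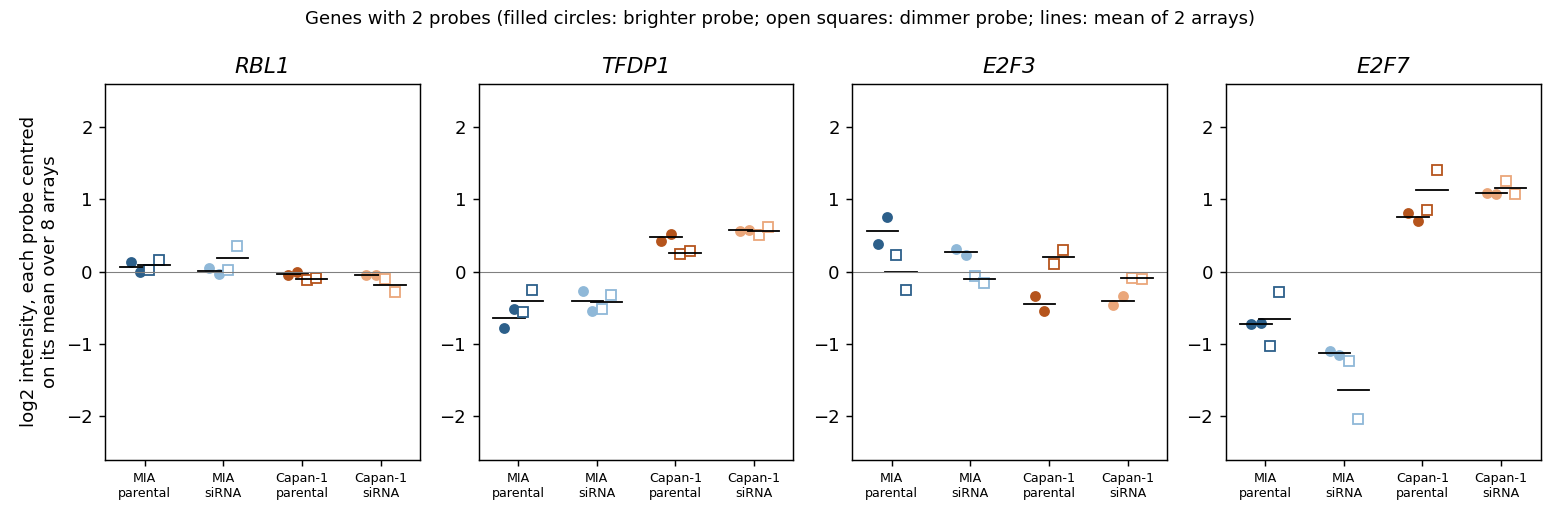
Levels of the genes with 2 probes (vertical axis: log2 intensity minus the mean of the same probe over 8 arrays); filled circles are the brighter and open squares the dimmer probe, points are arrays and lines are means of 2 arrays. Parental Capan-1 minus parental MIA PaCa-2 was 1.12 and 0.67 for the TFDP1 probes, but -1.01 and 0.22 for those of E2F3.

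In Capan-1, none of the 10 genes passed the test after HOXB7 siRNA. The largest changes were 0.32 for E2F7 and -0.38 for E2F4, and every other member lay between -0.20 and 0.09. No member passed in either direction (lowest adjusted p = 0.280, limma), and 1 member, E2F7, had an unadjusted p under 0.05, against 12.5% of all probes. At the same threshold 1 of 23376 probes was called (0.00428%). An exact permutation test of 2 arrays against 2 cannot give a p below 0.33. The ranges of the 2 siRNA and the 2 parental arrays did not overlap for 7 members, 5 lower and 2 higher, against 54.2% of all probes (27.9% lower and 26.3% higher). The median log2 fold change was -0.07 over the members and -0.01 over all probes.

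No pocket protein gene of Capan-1 passed the test. RB1 measured 1.70 and 1.74 after siRNA, against 1.94 and 1.90 before. Both treated arrays were below both parental ones, but the difference was -0.20 (95% interval -0.42 to 0.02, adjusted p = 0.428). RBL2 measured -1.06 on both treated arrays, against -0.94 and -0.95. The ranges were again apart but close, and the difference was -0.12 (-0.35 to 0.11, adjusted p = 0.637). RBL1 measured -1.09 and -1.10, against -1.10 and -1.06, with an interval of -0.22 to 0.20 about -0.01. Scaled to the spike-in probes, RB1 gave -0.48 and RBL2 -0.39, and without scaling RB1 gave -0.36, where the median of all probes was -0.28 and -0.16.

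Among the E2Fs of Capan-1, E2F7 was the one whose interval did not include 0. It measured 0.21 and 0.20 after siRNA, against -0.06 and -0.17 before. Both treated arrays were above both parental arrays, and they nearly coincided. The fold change was 0.32 (SE 0.08, 95% interval 0.13 to 0.52, adjusted p = 0.280, limma), which does not pass. It was 0.051 (SE 0.15) with spike-in scaling and 0.17 (SE 0.18) without scaling, settings that moved the median of all probes to -0.28 and -0.16. The dimmer E2F7 probe gave 0.03 (-0.87 to 0.93, adjusted p = 0.987), with overlapping arrays. E2F1 measured 0.81 and 0.87, against 0.98 and 0.99, a change of -0.15 (-0.38 to 0.08, adjusted p = 0.553). E2F2 measured 1.53 and 1.52, within its parental range of 1.49 to 1.57, and E2F3 -0.12 and -0.00, within its parental range of -0.21 to 0.01. E2F4 measured 0.35 and 0.13, against 0.56 and 0.69, a change of -0.38 (-0.92 to 0.15, adjusted p = 0.514). The E2F4 ranges did not overlap, and the interval is the widest among the brightest probes of the members. E2F8 measured -1.22 and -1.49, against -1.18 and -1.21, a change of -0.16 (-0.57 to 0.24, adjusted p = 0.712). TFDP1 measured 3.19 and 3.22, against 3.07 and 3.16, a change of 0.09 (-0.24 to 0.43, adjusted p = 0.811), and its second probe gave 0.30 (-0.03 to 0.62, adjusted p = 0.429).

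**Figure D4:**
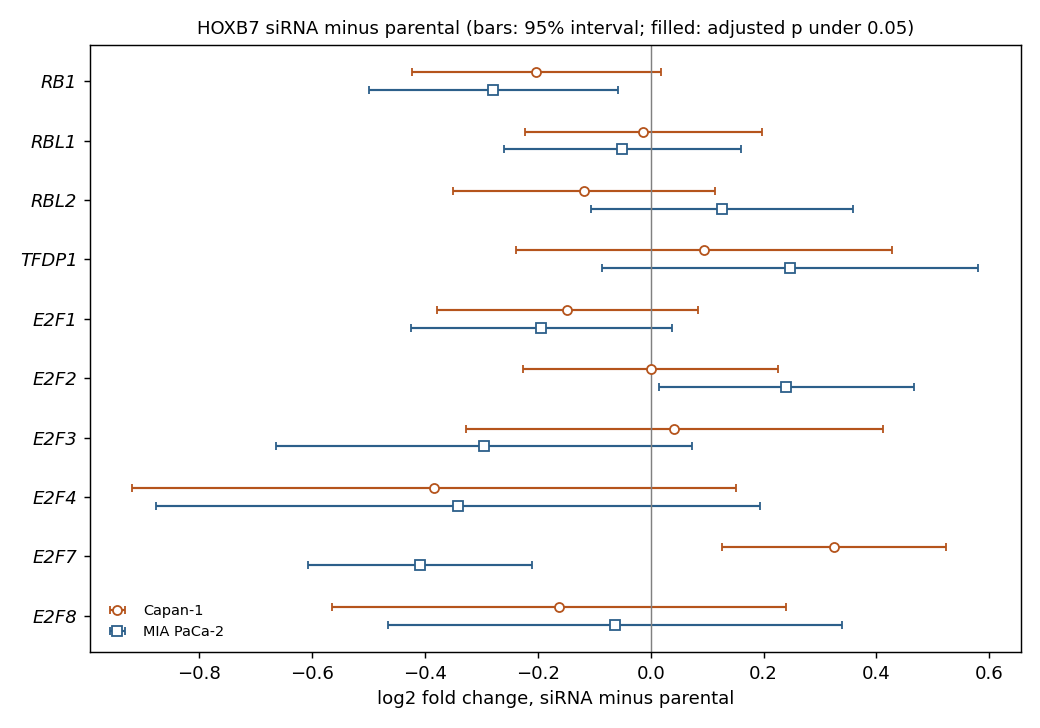
Change of each gene after HOXB7 siRNA (horizontal axis: log2 fold change against parental cells of the same line, with 95% intervals), in Capan-1 and in MIA PaCa-2; open symbols did not pass the threshold, and none passed. E2F7 lies at 0.32 in Capan-1 and at -0.41 in MIA PaCa-2.

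In MIA PaCa-2 none of the 10 genes passed either (lowest adjusted p = 0.0683, for E2F7), where 1.89% of 23719 probes did (0.932% lower and 0.961% higher), and 3 members had an unadjusted p under 0.05, against 20.4% of all probes. These 3 were E2F7, RB1 and E2F2. RB1 measured 1.26 and 1.10 after siRNA, against 1.50 and 1.41 before, a difference of -0.28 (95% interval -0.50 to -0.06, adjusted p = 0.166). E2F2 measured 1.63 and 1.50, against 1.39 and 1.26, a difference of 0.24 (0.01 to 0.47, adjusted p = 0.222). The other pocket protein genes gave -0.05 (95% interval -0.26 to 0.16) for RBL1 and 0.13 (-0.11 to 0.36) for RBL2. E2F7 measured -1.97 and -2.04 after siRNA, against -1.60 and -1.59, a change of -0.41 (SE 0.08) that came to -0.62 without scaling and -0.15 with normexp. The treated arrays lay below the parental ones, opposite to the order in Capan-1.

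The siRNA effects of the lines were compared directly in an interaction term. No member passed, where 1 of 25554 probes did (0.00391%), and 1 member had an unadjusted p under 0.05, against 11.1% of all probes. That member was E2F7, whose effect in Capan-1 exceeded that in MIA PaCa-2 by 0.73 (95% interval 0.45 to 1.01, adjusted p = 0.144, limma). The pocket proteins gave 0.08 (-0.24 to 0.39) for RB1, 0.04 (-0.26 to 0.33) for RBL1 and -0.24 (-0.57 to 0.08) for RBL2.

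Lists of genes acting with the pocket proteins or under them were counted by their brightest probes. Of the 75 genes tested in 6 lists, 54 (72.0%) passed between the parental lines, 40 lower and 14 higher in Capan-1, a share close to the 70.0% of all probes called. Over all probes 39.1% were called lower and 31.0% higher, and the median log2 difference was -0.11. Of the 8 corepressors tested, which pocket proteins recruit to silence promoters, 7 were lower in Capan-1 and 0 higher, with a median of -0.77. Of the 16 G2/M genes, late targets of DREAM, 10 were lower and 0 higher (median -0.36), and 5 were lower with spike-in scaling or 6 without scaling. The 27 E2F-driven S phase genes split into 9 lower and 8 higher (median -0.09). That split was 6 and 8 with spike-in scaling (median 0.04) and 8 and 4 without scaling. Of the 13 tested cyclin, CDK and CDK inhibitor genes, 8 were lower and 5 higher (median -0.47), or 5 and 4 with spike-in scaling. Of the 8 MuvB and DREAM partner genes 4 were lower and 0 higher (median -0.45), and 3 were lower with spike-in scaling. The 3 other E2F and DP genes gave 2 lower and 1 higher.

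Among the corepressors, RBBP7, a histone-binding subunit of histone deacetylase complexes, differed by -1.79 (SE 0.09, adjusted p = 1.12e-05), and the deacetylases HDAC2 and HDAC1 by -1.54 and -0.98. SUV39H1, a histone H3 lysine methyltransferase, differed by -0.97. With the intensities scaled to the spike-in probes, 4 corepressors passed instead of 7, all of them lower.

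Of the G2/M genes, the mitotic kinesin KIF20A differed by -2.04 (SE 0.10, adjusted p = 1.06e-05), cyclin B1 (CCNB1) by -1.61, the kinase AURKB by -1.26 and the checkpoint kinase BUB1 by -1.06. Among the transcription factors that drive late cell cycle genes with MuvB, MYBL1 differed by -3.40 (SE 0.08, adjusted p = 8.09e-07), MYBL2 by -1.16 and FOXM1 by -0.71. RBBP4, a MuvB subunit, differed by -0.68 (adjusted p = 0.0247).

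The S phase genes named by the rule went both ways. The replication licensing factor CDC6 was higher in Capan-1 by 1.80 (SE 0.17, adjusted p = 0.000163), and the phosphatase CDC25A by 1.68 (adjusted p = 2.92e-05). The DNA polymerase alpha subunit POLA1 differed by -1.39 (adjusted p = 4.25e-05), and the histone mRNA binding protein SLBP by -1.14.

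Upstream of the pocket proteins, the CDK inhibitor CDKN1A (p21) was higher in Capan-1 by 2.89 (SE 0.32, adjusted p = 0.000345), and CDK6, a kinase that phosphorylates pocket proteins with cyclin D, by 2.37 (SE 0.09, adjusted p = 3.97e-06). The probes of the inhibitors CDKN1C (p57) and CDKN2A (p16) differed by -1.65 and -1.34. The paper counts p16 among commonly altered genes, and the state of the CDKN2A gene was not examined here, so its value describes a probe signal. Of the other family members, TFDP2 (a second DP gene) differed by -0.86, E2F5 by 0.81 and E2F6, a repressor without a pocket protein binding domain, by -0.30 (adjusted p = 0.0182). E2F5, the other partner of p130, was higher in the line with the lower RBL2 level.

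**Figure D5:**
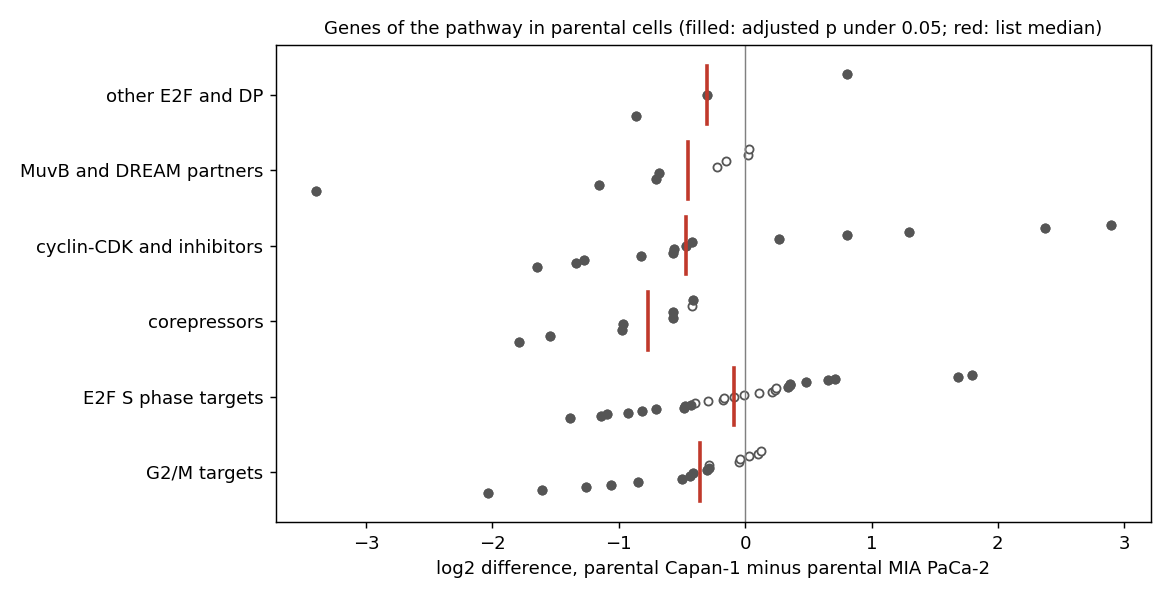
Difference of parental Capan-1 from parental MIA PaCa-2 for genes of 6 pathway lists (horizontal axis: log2 units), 1 point a gene, filled where it passed the threshold, with the list's median as a red line. Corepressors lie below 0 throughout (median -0.77), and the S phase genes spread on both sides of 0 (median -0.09).

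After siRNA, 0 genes of these 6 lists passed in Capan-1, and the medians lay between -0.13 and -0.01. In MIA PaCa-2 2 of 75 genes (2.67%) passed, against 1.89% of all probes. Cyclin E1 (CCNE1), an activator of CDK2, rose by 0.73 (SE 0.09, adjusted p = 0.0288), and BIRC5 (survivin), a G2/M gene, fell by 0.73 on the log2 scale (adjusted p = 0.0272). Each passed in 7 of 19 alternatives, with an adjusted p of up to 0.278 for CCNE1 and 0.173 for BIRC5, and no probe of any gene passed with the replicate number as a block, in a fit of the 4 MIA PaCa-2 arrays alone or without Capan-1 siRNA replicate 2. In Capan-1 the same genes gave 0.27 (adjusted p = 0.337) and -0.31 (adjusted p = 0.293).

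The genes whose pattern over the 8 arrays was nearest to each pocket protein gene were found among 20376 probes, by the root mean square difference of log2 values, each centred on its own mean. Nearest to RB1 were IFT25 (0.040) and PIGT (0.046), where the median over all probes was 0.48. Nearest to RBL2 were TMEM120A (0.058) and AGPAT1 (0.061), against a median of 0.82. Nearest to RBL1, which hardly varied, were KRTAP5-7 (0.031) and NOL12 (0.035), against a median of 0.37. These are descriptions over 8 arrays on 2 slides.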

How the data were processed

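The samples were total RNA of parental and HOXB7 siRNA-treated cells of both lines, labelled with Cy3. The authors extracted spot values with Agilent Feature Extraction 9.5.3 (per the labels) and deposited, for each array, intensities after background subtraction, with spot flags. They also deposited log2 values, which equal the log2 of these intensities and are not scaled between arrays.

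Here, unflagged spots of a probe were averaged on the log2 scale, and the 75th percentile of the 34127 gene probes (43118 spots) was subtracted on each array. Of 26603 probes with a symbol, 24827 were matched through their accession. Group means were fitted with limma 3.58.1 (lmFit, eBayes) in R 4.3.3. A contrast was tested, two-sided, on the probes detected above background on both arrays of either group, and p-values were adjusted over all of them (Benjamini-Hochberg, threshold 0.05, 4 residual degrees of freedom). Where 1 group was not above background, "at least" gives the fold against the lowest signal among detected probes. The number of arrays limits the precision, and no gene spot was saturated. The R package data.table (1.17.8), Python 3.11.15, pandas 2.3.3 and matplotlib 3.10.9 were also used, and the steps were tested on simulated data.

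All members were named, led by the brightest probe. From each pathway list, the rule named up to 4 genes with the largest difference that passed and were above background on the 4 arrays compared, and for each pocket protein gene the 2 nearest genes by pattern. Members and lists were chosen with earlier results of these data known. Probe positions are the array annotation's (hg18), and gene models of that build were not used here.

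The alternatives were normexp (offset 50), quantile, spike-in or no scaling, outlier spots kept, the deposited log2 table, other filters on dim probes, a fit of 4 arrays, the replicate block, an intensity trend, the other probe, each array left out, and a 99% interval of the parental ratios after the study's methods, with a window of 1001 probes set here. The counts of the pathway lists under other scalings were added after seeing the data.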

Additional observations from a re-analysis of the deposited data

Results flagged for a closer look

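E2F7 was flagged because its treated and parental ranges did not overlap and went opposite ways in the lines, so that pattern is no further support. How many of all probes show such a pattern was not counted. The effect of HOXB7 siRNA on E2F7 differed between the lines at an unadjusted p under 0.05 (limma), as it did for 11.1% of all probes. It was 0.32 in Capan-1, higher on both treated arrays, and -0.41 in MIA PaCa-2, lower on both treated arrays, a difference of 0.73 on the log2 scale (interaction term in limma, adjusted p = 0.144). The effect in Capan-1 was 0.051 with spike-in scaling and 0.17 without scaling, where the median of all probes was -0.28 and -0.16, and that in MIA PaCa-2 ranged from -0.62 without scaling to -0.15 with normexp. At the same probe the difference ranged from 0.44 to 0.79 over 18 alternatives and its adjusted p from 0.0891 to 0.832, so it passed the correction under none of those run. The dimmer E2F7 probe was not well above background on any MIA PaCa-2 array and gives no difference that can be read. Array position and treatment cannot be told apart on either slide.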

How the results depend on the processing

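Dim probes and small differences were limited by 2 arrays a group. The counts of members called stayed within 1.5 times, except for 1 lower in MIA PaCa-2 after siRNA (E2F7) with probes above background on all 8 arrays or an intensity trend, and 3 higher in parental Capan-1 without scaling, where RB1 (adjusted p = 0.0872) and E2F1 (0.185) no longer passed. Leaving out each array gave 4 to 5 higher and 2 lower members in parental cells, and 5 and 2 in treated cells. E2F1 did not pass in treated cells either without scaling (0.0923) or with spike-in scaling, and E2F2 passed in parental cells with normexp, quantile normalization or a trend (lowest adjusted p = 0.0272), which made 6 higher. The replicate numbers did not pair the arrays (correlation of deviations 0.020 within MIA PaCa-2, 0.038 within Capan-1). With the replicate number as a block, 2 members were lower and 5 higher between the lines, and 0 passed within them. Over all probes, calls after siRNA ranged from 0 to 168 in Capan-1, against 1, and from 0 to 1252 in MIA PaCa-2, against 449, with 0 in both under the block.

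Signs turned for members that had not passed, and for E2F3 at its other probe. In Capan-1 after siRNA, normexp gave 0.0018 for RBL1 and 0.0060 for E2F2, no scaling gave -0.11 for E2F3 and -0.058 for TFDP1, spike-in scaling gave -0.23 and -0.18, and the other probe of E2F3 gave -0.30. Leaving out 1 array gave -0.033 to 0.0060 for RBL1, -0.040 to 0.040 for E2F2 and -0.066 to 0.15 for E2F3. In MIA PaCa-2 after siRNA, the other probe gave 0.096 for RBL1 and -0.0052 for TFDP1, no scaling gave -0.087 for RBL2 and normexp 0.053 for E2F8, with -0.12 to 0.018 for RBL1 and -0.24 to 0.11 for E2F8 without 1 array. In parental cells, spike-in scaling gave 0.040 for RBL1 and 0.025 for E2F4, the other probe 0.22 for E2F3, and leaving out 1 array -0.42 to 0.21 for E2F4. In treated cells, normexp gave 0.0063 for RBL1 and 0.032 for E2F2, the other probe 0.011 for E2F3, and leaving out 1 array -0.10 to 0.025 for E2F2. After siRNA, no scaling moved the median of all probes to -0.16 in Capan-1 and -0.19 in MIA PaCa-2, and spike-in scaling moved it to -0.28 in Capan-1, so signs there are relative to these medians. The cause of these changes was not tested.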
